A study of Mus musculus with 9 samples.

Results

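The basal cell keratins Krt5, Krt14, Krt15 and Krt17 were followed across sorted cells of the mouse tracheal epithelium. The members are the probe sets of an Affymetrix mouse expression array whose platform annotation names 1 of these 4 genes, 7 probe sets among 45101. Of the whole array, 45037 probe sets are not controls and 18193 genes are named. They comprise 1 probe set for Krt5, 3 for Krt14, 1 for Krt15 and 2 for Krt17. An 8th probe set, 1427841_at, is annotated to both Krt14 and Krt17 and is shown without being assigned to either. All mice were hemizygous for a KRT5-GFP transgene, in which the keratin 5 promoter drives green fluorescent protein, so every group, the reporter-negative ones included, carried the transgene. Single cells obtained by enzymatic digestion and manual dissection were sorted on GFP and on binding of the isolectin GSI-A3B. The GFP+ gate held cells with both marks and the lectin-only gate held GFP- lectin+ cells, and the labels name both as basal cells. The columnar gate held GFP- lectin- cells, which the labels name columnar epithelium. Each gate had 3 biological replicates, giving 9 arrays, while age and sex are not given in the sources used here.

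Keratins are the intermediate filament proteins of epithelia. Each filament is built from obligate pairs of an acidic type I keratin and a basic type II keratin. Krt5 is type II, and Krt14, Krt15 and Krt17 are type I partners it can pair with. The pair of Krt5 and Krt14 is the classical filament of the basal layer of stratified epithelia and of airway basal cells, the stem cells of the pseudostratified tracheal lining. Krt15 marks basal cells of several epithelia, and Krt17 is known for its induction in wounded and activated epithelium. Filaments are anchored at desmosomes, which join neighbouring cells, and at hemidesmosomes, which join the basal cell to its basement membrane.

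Since the sort used a reporter driven by a keratin 5 promoter, the window of the endogenous mouse Krt5 promoter in RefSeq, from 250 bases before to 50 after its start, is shown, on the minus strand of GRCm38.p6 at chr15:101712856-101713155. Whether the transgene carries this sequence is not given in the sources used here. The capitals mark the 1 match to the p53 family half-site, the kind of element bound by p63, which begins 95 bases before the start.
Krt5: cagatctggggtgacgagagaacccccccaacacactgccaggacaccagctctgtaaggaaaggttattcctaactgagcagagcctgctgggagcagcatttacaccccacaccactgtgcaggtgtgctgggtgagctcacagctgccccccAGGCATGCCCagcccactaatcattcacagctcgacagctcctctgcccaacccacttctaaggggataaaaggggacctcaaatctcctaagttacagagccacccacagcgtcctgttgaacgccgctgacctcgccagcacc
This half-site was found on either strand in 8.36% of 32851 RefSeq promoter windows of this length. The window had 0 matches to TATAAA (the TATA box, in 13.6% of windows), TGANTCA (AP-1, 7.81%), GGGCGG (the GC box, 35.7%) and GCCNNNGGC (AP-2, 16.6%), searched on both strands. These are letter matches only. The table's window for Krt14 begins 1480 bases inside the gene and is not printed, and Krt15 and Krt17 had no match in it.

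Values are log2 probe set signals. A background level of 3.56 on this scale was set from probe sets of olfactory and vomeronasal receptors. Lectin-only replicate 3 had a median of 5.43, and the other 8 arrays had medians of 4.90 to 5.16. Above background lay 73.0% of its probe sets, against 65.3% to 66.3% elsewhere. A difference was called where limma's Benjamini-Hochberg adjusted p over 45037 probe sets was under 0.05 and the difference reached 1 log2 unit in either direction. Errors of levels are SD over 3 arrays and errors of differences are limma SE.

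Krt5, Krt14 and Krt17 were high in both lectin-binding gates and far lower in the columnar gate, whereas Krt15 was among the brightest signals of all 3 gates. Of the 7 probe sets, 5 were called higher in the GFP+ than in the columnar gate, and 0 lower, with 0 lower at an unadjusted p under 0.05 by limma. The background over all probe sets was 3.86% called higher and 3.14% lower. The same 5, all 3 of Krt14 and 1 each of Krt5 and Krt17, were called higher in the lectin-only gate, against backgrounds of 3.81% higher and 1.28% lower. Both comparisons share the columnar arrays. When the 2 lectin-binding gates were compared, limma called 0 of 7 in either direction, with 1 higher at an unadjusted p under 0.05, where the backgrounds were 0.451% higher and 1.18% lower. The median difference of the 7 was 5.08, 4.93 and -0.02 in the 3 comparisons, against -0.04, 0.06 and -0.09 over all probe sets. Fewer cells of a type and less RNA per cell cannot be told apart in such sorted bulk samples.

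**Figure D1:**
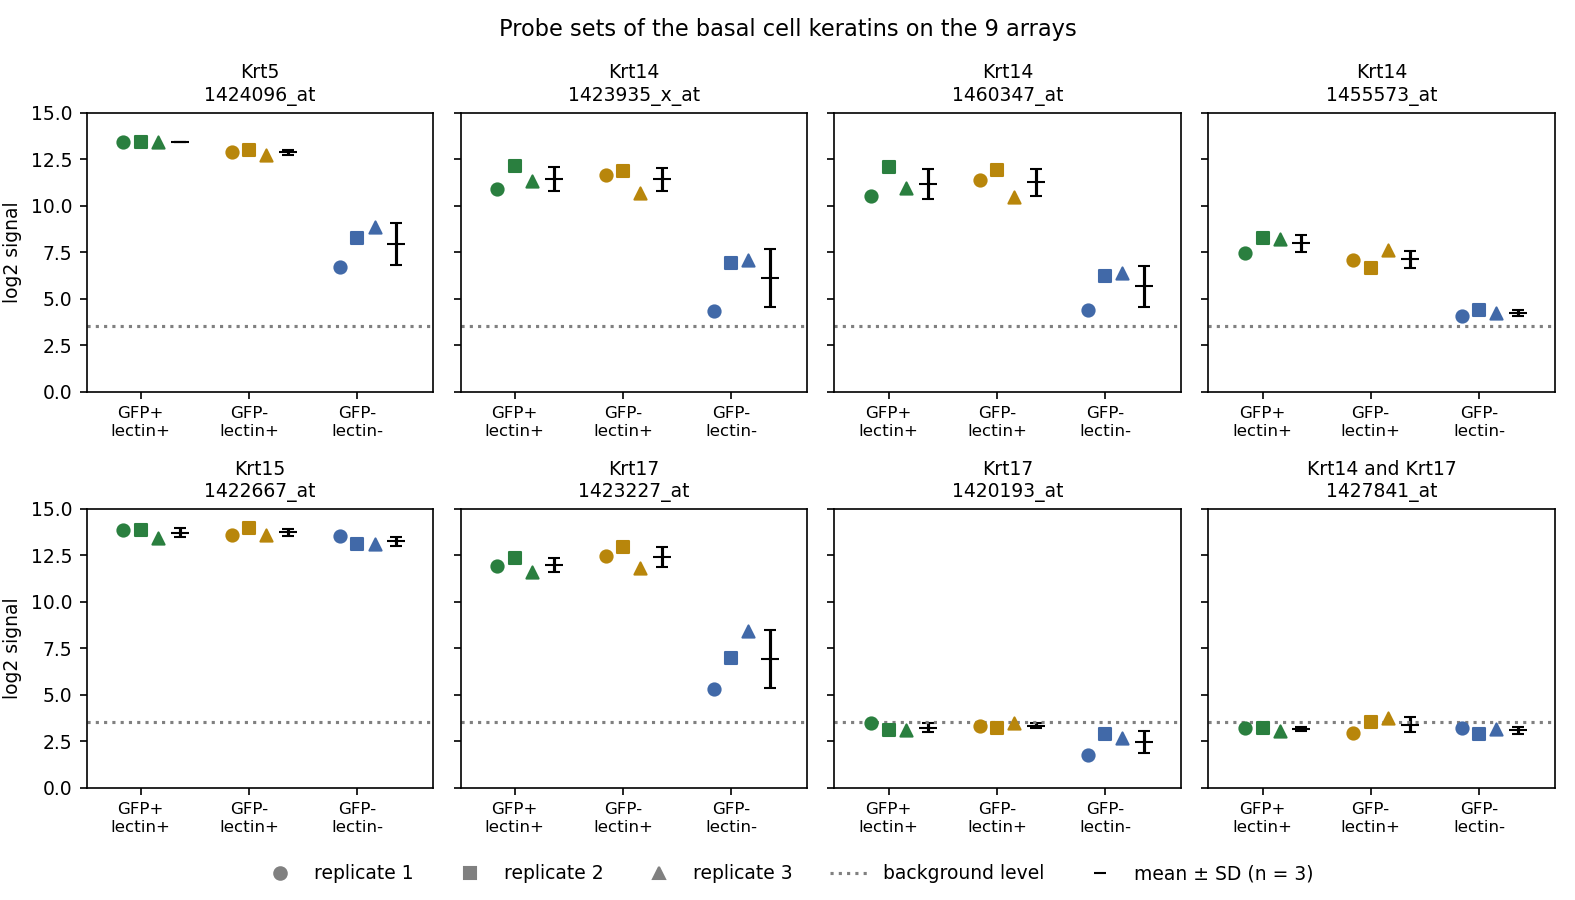
Each panel plots the log2 signal (y axis) of 1 probe set on the 9 arrays, grouped by gate (x axis), with symbols for the replicates, black bars for the mean ± SD over 3 arrays and a dotted line at the background level of 3.56. Krt5, all 3 Krt14 probe sets and Krt17 1423227_at are lower on every columnar array than on any lectin-binding array, Krt15 is near the top of the scale in all gates, and Krt17 1420193_at and the shared probe set 1427841_at lie near or under background.

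Krt5 is the type II keratin whose promoter drives the reporter, so its level checks the sort and is no independent result for the GFP gates. Its probe set 1424096_at read 13.44, 13.44 and 13.42 on GFP+ replicates 1 to 3. It read 12.91, 13.02 and 12.72 on the lectin-only arrays and 6.71, 8.27 and 8.88 on the columnar arrays. The 3 gates did not overlap, and their order was GFP+, lectin-only, columnar. The GFP+ gate exceeded the columnar gate by 5.48 ± 0.45 (44.6-fold, limma adjusted p = 9.62e-05) and the lectin-only gate exceeded it by 4.93 ± 0.45 (30.4-fold, limma adjusted p = 0.000293). The lectin-only cells, which were sorted as reporter-negative, thus had Krt5 signals of 61.1% to 74.8% of the GFP+ mean on the linear scale, and the columnar arrays of 0.947% to 4.26%. Only 127 to 487 probe sets were brighter than Krt5 on any lectin-binding array, and the part of such high signals in these percentages was not tested. The step between the GFP+ and lectin-only gates, 0.55 ± 0.45 (95% interval -0.453 to 1.56, limma adjusted p = 0.769), was not called, although the arrays did not overlap. The SE shared by all 3 gates includes the wide columnar spread, and with the 2 lectin-binding gates fitted alone it was 0.19 (limma adjusted p = 0.310).

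Krt14, the type I partner of Krt5, was measured by 3 probe sets that were all called in the same direction against the columnar gate. The brightest, 1423935_x_at, read 10.90, 12.13 and 11.32 on the GFP+ arrays and 11.68, 11.89 and 10.72 on the lectin-only arrays. It read 4.33, 6.95 and 7.07 on the columnar arrays. The lectin-binding gates overlapped each other and did not overlap the columnar arrays. The differences from the columnar gate were 5.33 ± 0.68 for the GFP+ gate (limma adjusted p = 0.00113) and 5.32 ± 0.68 for the lectin-only gate (limma adjusted p = 0.00182).

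The suffix _x_at marks Krt14 probes that may also match related transcripts, so the other 2 probe sets bear on that value. Probe set 1460347_at, without that suffix, read 10.53, 12.11 and 10.95 (GFP+), 11.41, 11.92 and 10.46 (lectin-only) and 4.42, 6.25 and 6.38 (columnar). Its differences from the columnar gate, 5.51 ± 0.60 and 5.58 ± 0.60, were within 1 SE of those of 1423935_x_at. The dimmer 1455573_at read 7.45, 8.29 and 8.22, then 7.10, 6.67 and 7.61, then 4.09, 4.42 and 4.23 in the same order of gates. Its differences from the columnar gate were smaller, 3.74 ± 0.30 and 2.88 ± 0.30, and its columnar values lay close to background.

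The Krt14 probe sets did not separate the 2 lectin-binding gates. GFP+ minus lectin-only was 0.02 ± 0.68 for 1423935_x_at (95% interval -1.52 to 1.55, limma adjusted p = 0.997) and -0.06 ± 0.60 for 1460347_at. It was 0.86 ± 0.30 for 1455573_at (95% interval 0.197 to 1.52, limma adjusted p = 0.259), where the arrays of the gates overlapped.

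Krt17, the type I keratin of activated epithelium, followed Krt14. Probe set 1423227_at read 11.95, 12.38 and 11.63 on the GFP+ arrays, 12.50, 12.93 and 11.83 on the lectin-only arrays and 5.33, 6.96 and 8.44 on the columnar arrays. The columnar arrays were all lower than the lectin-binding ones and spread over 3.11 log2 units. Krt17 was higher by 5.08 ± 0.65 in the GFP+ gate (limma adjusted p = 0.00114) and by 5.51 ± 0.65 in the lectin-only gate (limma adjusted p = 0.00119). The 2 lectin-binding gates overlapped, and their difference of -0.43 ± 0.65 (95% interval -1.90 to 1.03) was not called.

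The other Krt17 probe set, 1420193_at, lay under background on 9 of 9 arrays, between 1.76 and 3.51. The shared probe set 1427841_at lay between 2.89 and 3.73 and above background on 1 array. Neither was called in any comparison, and no fold is given for signals under background.

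Krt15, a type I keratin used as a basal cell marker, was not called between any gates. Its probe set 1422667_at read 13.85, 13.87 and 13.44 (GFP+), 13.63, 13.98 and 13.61 (lectin-only) and 13.55, 13.14 and 13.11 (columnar). The GFP+ and columnar arrays overlapped, while the lowest lectin-only array lay just above the highest columnar one. The GFP+ gate exceeded the columnar gate by 0.45 ± 0.21 (95% interval -0.0185 to 0.925, limma adjusted p = 0.287). The lectin-only gate exceeded it by 0.47 ± 0.21 (95% interval -5.92e-06 to 0.943, limma adjusted p = 0.306). The intervals do not hold a 2-fold difference, a log2 difference of 1. On the linear scale the columnar arrays were at 64.8% to 88.1% of the GFP+ mean. Only 10 to 256 of the 45037 probe sets were brighter than Krt15 on any array, the columnar ones included, and the part of such high signals in the small differences was not tested.

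Within an array, the log2 ratio of each keratin to Krt5 shows whether 2 keratins changed by unequal amounts between gates. Krt15 over Krt5 was 0.28 ± 0.23 (SD) for GFP+ cells, 0.86 ± 0.12 for lectin-only cells and 5.31 ± 1.36 for columnar cells, with no overlap between any gates. Krt17 over Krt5 was -1.45 ± 0.37, -0.46 ± 0.41 and -1.04 ± 0.52 in the same order. The ratio was thus 0.98 lower in the GFP+ than in the lectin-only gate, and those arrays did not overlap. Between these 2 gates the ratios are no independent result, since the sort used a reporter of Krt5, the denominator. Taken alone, GFP+ minus lectin-only was 0.55 ± 0.45 for Krt5, -0.43 ± 0.65 for Krt17 and -0.02 ± 0.21 for Krt15. Krt14 over Krt5 by 1423935_x_at, at -1.99 ± 0.63, -1.45 ± 0.48 and -1.84 ± 0.53, overlapped between every pair of gates, as did that by 1460347_at. By the dimmer 1455573_at it was -5.45 ± 0.47, -5.76 ± 0.62 and -3.71 ± 1.02, without overlap between either lectin-binding gate and the columnar gate, where this probe set lay close to background. The Krt14 probe sets thus disagreed on this ratio. By a two-sided exact permutation test over arrays, the changes without overlap had p = 0.1, the smallest that 3 against 3 arrays allow, and 0.25 after Benjamini-Hochberg adjustment over the 15 ratio comparisons.

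The columnar arrays differed among themselves far more in Krt5, Krt14 and Krt17 than in most genes. Each gene is taken here by its brightest probe set. Replicate 1 was the lowest for each of the 3 genes and replicate 3 the highest. The Krt14 probe set 1460347_at had the same order, while 1455573_at, close to background there, read 4.09, 4.42 and 4.23, highest on replicate 2. The range over the 3 arrays was 2.17 for Krt5, 2.74 for Krt14 and 3.11 for Krt17, against a median of 0.43 over 12349 genes above background on every array. Their ranges exceeded those of 98.9%, 99.6% and 99.8% of these genes. Krt15 ranged over 0.44, with its highest columnar value on replicate 1.

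Most other basal cell markers ranged less on the columnar arrays. Some of them could show little spread, since Col17a1 lay near background there and Pdpn was bright in every gate. Trp63, the transcription factor of basal cells, read 7.66, 7.29 and 7.92 on the columnar arrays, and the median range of the 14 markers listed was 0.39. Lamb3, a laminin chain of the basal cell's basement membrane, ranged over 1.16, while Itgb4, the hemidesmosomal integrin subunit, ranged over 0.08. Lamb3 (4.79, 5.41, 5.95) and Snai2 (4.72, 5.57, 5.85) were lowest on columnar replicate 1 and highest on replicate 3, like the keratins. Other listed markers had other orders, with Trp63 lowest on replicate 2 and Aqp3 (10.21, 9.20, 9.41) highest on replicate 1. Squamous and hillock genes did spread, with a median range of 1.22 over 10 listed genes. Leukocyte genes spread nearly as much, with a median range of 1.10 over 11 listed genes. Of the squamous list, Krt6a (5.94, 8.40, 10.19), Krt13 (7.82, 9.53, 10.82) and Krtdap (2.46, 4.83, 6.73) were likewise lowest on columnar replicate 1 and highest on replicate 3. Ivl (5.03, 4.75, 4.82), Tgm1 (5.17, 4.76, 5.35) and Sprr1b (2.39, 2.54, 2.52, under background) had other orders. The mean level of the squamous list was 5.99, 6.77 and 7.76 on these arrays, and its part in the keratin spread was not tested.

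**Figure D2:**
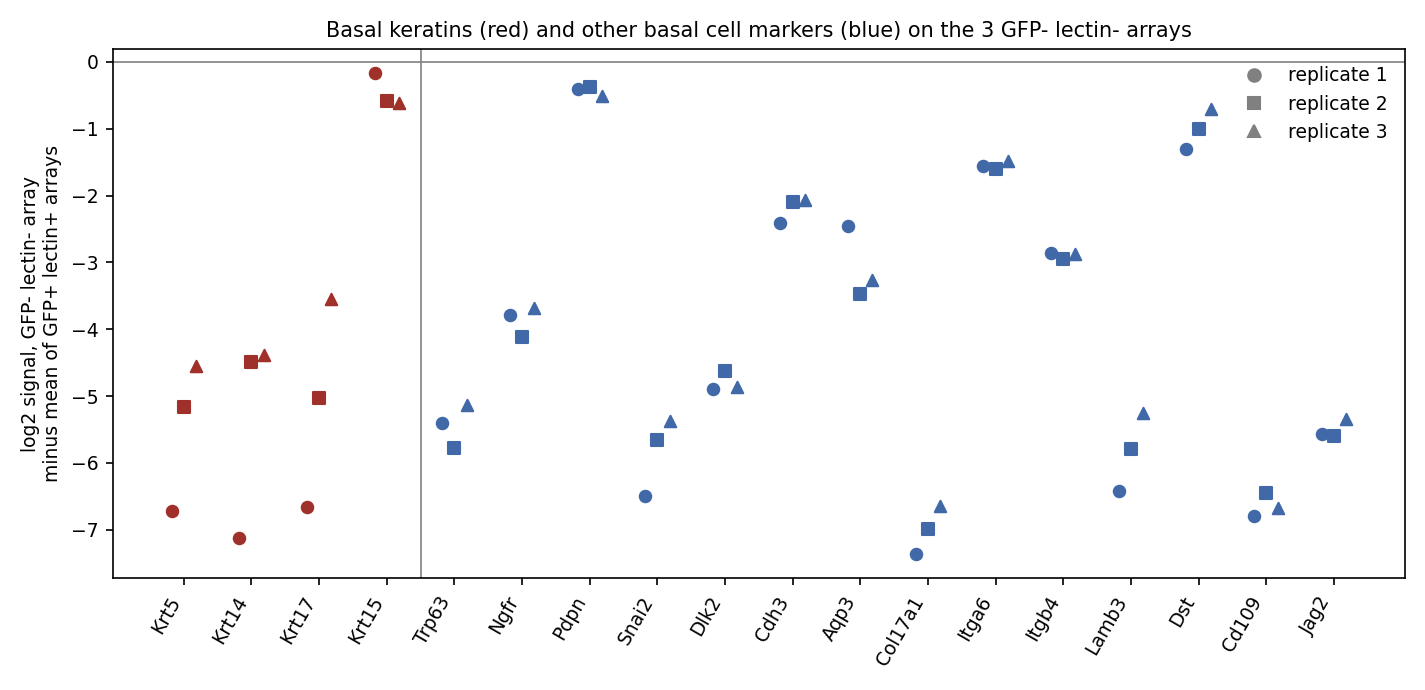
Each gene on the x axis is taken by its brightest probe set. The points give the log2 signal on the 3 columnar arrays minus the mean of the GFP+ arrays (y axis, log2 units). Symbols mark the replicates. Krt5, Krt14 and Krt17 (red) spread over 2.17 to 3.11 units with replicate 1 lowest, Krt15 lies within 1 unit of the GFP+ level, and most other basal cell markers (blue) spread less.

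In the GFP+ gate the order was different. Krt5 ranged over 0.02 there, a smaller range than nearly all genes above background, of which 0.316% ranged less, and Krt14 over 1.23, with replicate 2 highest on 1423935_x_at and 1460347_at. Krt17 ranged over 0.75, also with replicate 2 highest. The squamous list had its highest mean on that array too, 10.73 against 8.61 and 9.78 on replicates 1 and 3, with Krt16, the wound-induced type I keratin, at 10.47 against 7.63 and 9.22. RMA sets equal ranks to nearly equal values, and 127 to 130 probe sets were brighter than Krt5 on the 3 GFP+ arrays.

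Other keratins were called beside the members. The annotation named 48 genes with a symbol of Krt and a number, each taken by its brightest probe set, and 7 of them lay under background on all arrays. Compared with columnar cells, GFP+ cells had 8 keratins called higher and 1 lower, against backgrounds of 5.36% and 4.96% of 18193 genes. Beside Krt5, Krt14 and Krt17 these were Krt16 (4.39 ± 0.68), the hair follicle keratins Krt75 (4.30 ± 0.77) and Krt31 (2.71 ± 0.41), the wound-induced Krt6a (3.93 ± 0.98) and Krt13 of stratified mucosa (2.91 ± 0.72). Krt23, a type I keratin, was the one lower (-1.21 ± 0.28), a call that was lost without GFP+ replicate 1, lectin-only replicate 1 or any columnar array in turn. The median difference of the 48 was 0.03, against -0.04 over all genes.

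In the lectin-only gate 11 keratins were called higher and 0 lower than in the columnar gate, where limma gave 1 lower at an unadjusted p under 0.05. The backgrounds were 5.85% and 2.05%. Krt16 (5.99 ± 0.68), Krt75 (5.52 ± 0.77), Krt6a (4.98 ± 0.98) and Krt13 (3.96 ± 0.72) were again among them. Krt20 (3.20 ± 0.66), Krt80 (2.51 ± 0.50), Krt4 (1.27 ± 0.26), the type II partner of Krt13, and Krt33b (1.22 ± 0.27) were called in this gate and not in the GFP+ gate, and limma called 0 of these 4 between the lectin-binding gates. The count fell to 7 without lectin-only replicate 3 or columnar replicate 2. The median of the 48 was 0.28, against 0.07 over all genes.

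Between the lectin-binding gates 1 of 48 keratins was called, Krt23, which was lower in the GFP+ gate at -1.49 ± 0.28 (limma adjusted p = 0.0336), against a background of 2.09% lower. The call was lost without GFP+ replicate 3, lectin-only replicate 2 or 3, or any columnar array. Limma called 0 higher, with 1 at an unadjusted p under 0.05 and a background of 0.654%. The keratins of simple epithelium, Krt8, Krt18 and Krt19, had mean signals between 13.02 and 13.91 in every gate and were not called in any comparison.

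**Figure D3:**
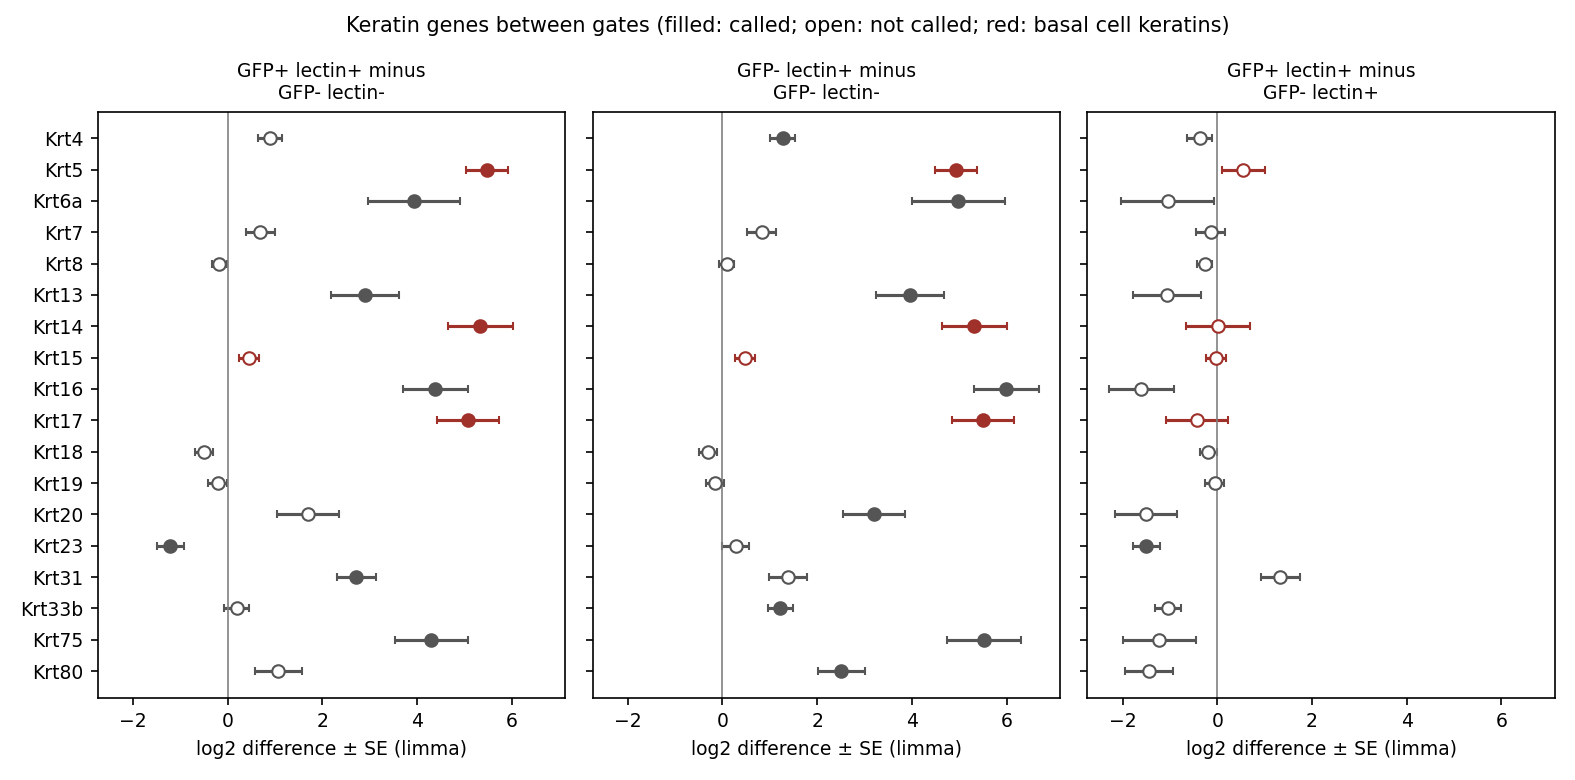
The log2 difference between gates with its limma SE (x axis) is shown for the keratin genes called in at least 1 comparison and for Krt7, Krt8, Krt15, Krt18 and Krt19 (y axis). Filled points were called and open points were not. Krt5, Krt14 and Krt17 (red) lie between 4.93 and 5.51 against the columnar gate in both left panels, Krt15 lies at 0.45 and 0.47, and in the right panel Krt23 alone is filled.

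Krt14, Krt15 and Krt17 lie in the type I keratin cluster on chromosome 11, and Krt5 in the type II cluster on chromosome 15. By the order of genes in RefSeq, the measured genes from Krt15 to Krt17 are Krt15, Krt19, Krt14, Krt16 and Krt17. The first pair, Krt15 and Krt19, was not called in either comparison with the columnar gate, with Krt19 at -0.21 ± 0.20 (GFP+) and -0.16 ± 0.20 (lectin-only). The next 3 genes, Krt14, Krt16 and Krt17, were each called in both. Among the measured genes, the uncalled and the called ones were thus each adjacent in this stretch. Krt9, which lies between Krt19 and Krt14, was not measured. The ends of the stretch were set by the members Krt15 and Krt17, and whether the pattern holds beyond them was not tested. Type I keratins outside it, not placed in order here, went both ways. Krt13 was called in both comparisons (2.91 and 3.96), and Krt42 in neither (0.17 and 0.64). Krt14, Krt16 and Krt17 are also close in sequence, so signal shared between their probes cannot be told apart here from signal of each gene.

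**Figure D4:**
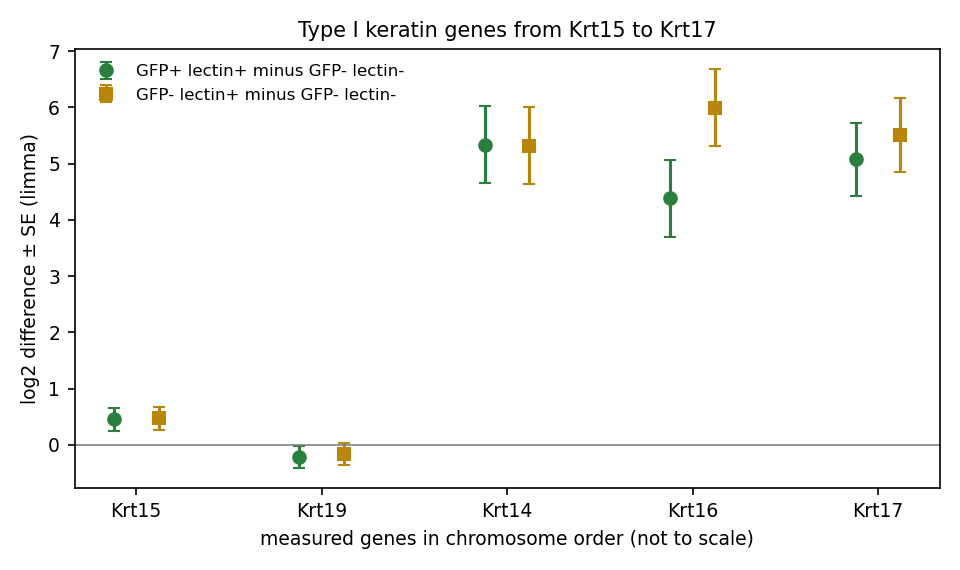
The log2 difference from the columnar gate with its limma SE (y axis) is shown for the measured type I keratin genes in their order along chromosome 11 (x axis, not to scale), for the GFP+ gate (circles) and the lectin-only gate (squares). Krt15 and Krt19 lie within 0.5 of zero and Krt14, Krt16 and Krt17 between 4.39 and 5.99.

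Genes other than the 4 members with the most similar profiles were found by the root mean square difference between log2 profiles over the 9 arrays, after each was centred on its own mean. This measure mostly reflects the gap between the gates, and it is a description. Nearest to Krt5 among these genes were Dapl1 (0.37), Phyhip (0.45), Lama3 (0.48), a laminin chain, Ndrg1 (0.52) and Procr (0.55), the protein C receptor. Dapl1 read 13.62 ± 0.12 (SD), 12.93 ± 0.21 and 8.36 ± 0.74 in the GFP+, lectin-only and columnar gates. Of the members, Krt14 and Krt17 lay 0.50 and 0.54 from Krt5, nearer than Ndrg1 and Procr respectively, and 0.44 from each other.

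Among the genes that are no members, nearest to Krt14 were Lgals7 (0.41), the galectin of stratified epithelia, Tpm2 (0.56), a tropomyosin, Procr (0.65), Krt75 (0.68) and Phyhip (0.71). Nearest to Krt17 in the same ranking were Lgals7 (0.53), Krtdap (0.63), Tpm2 (0.69), Phyhip (0.70) and Ndrg1 (0.71). Lgals7 read 9.36 ± 1.12 (SD), 9.38 ± 0.45 and 4.24 ± 1.08 in the same order of gates. Krt15 lay 2.34 to 2.47 from the other 3 keratins. Its nearest genes were Taf1b (0.09), Sf3b6 (0.10), Kdm3a (0.10), Aebp2 (0.11) and Lima1 (0.11), all with nearly level profiles.

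Transcription factors reported at basal keratin genes were measured as a list of 17. In the GFP+ gate 5 were called higher than in the columnar gate, among them Trp63 (5.44 ± 0.20), the zinc finger protein Bnc1 (6.27 ± 0.24), the AP-1 subunit Fosl1 (1.86 ± 0.21) and Gli2, of Hedgehog signalling, which was at least 3.94-fold higher since it lay under background on every columnar array. In the lectin-only gate 3 were called higher, Trp63 (4.32 ± 0.20), Bnc1 (4.78 ± 0.24) and Fosl1 (1.16 ± 0.21). Limma called 0 lower in either, with 0 at an unadjusted p under 0.05. The medians of the list were 0.62 and 0.48, against -0.04 and 0.07 over all genes. As a background, 5.36% and 5.85% of all genes were called higher in these 2 comparisons, and 4.96% and 2.05% lower.

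Unlike the 4 keratins, Trp63 and Bnc1 were called between the lectin-binding gates, at 1.12 ± 0.20 (limma adjusted p = 0.0270) and 1.48 ± 0.24 (limma adjusted p = 0.0173) higher in the GFP+ gate. Trp63 read 13.19, 13.05 and 12.93 on the GFP+ arrays and 11.98, 12.06 and 11.79 on the lectin-only arrays, which did not overlap. These were 2 of the 17 listed factors, against 0.654% of all genes called higher between these gates. The count of 2 fell to 0 without any 1 GFP+ array or lectin-only replicate 1 or 3, and to 1 without lectin-only replicate 2. Whether the keratins differed from Trp63 in their change was not tested.

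The list of attachment genes holds desmosomal and hemidesmosomal proteins and other proteins linked to keratin filaments, Sfn, Fam83h and Tchp among them. Of 22 listed, 21 were measured. In the GFP+ gate 10 were called higher than in the columnar gate, led by the hemidesmosomal collagen Col17a1 (7.0 ± 0.43), the desmosomal cadherin Dsc3 (5.96 ± 0.34), the desmosomal plaque protein Pkp1 (3.41 ± 0.34) and Itgb4 (2.89 ± 0.23). In the lectin-only gate 10 were also called higher, with Col17a1 at 4.90 ± 0.43, Dsc3 at 4.20 ± 0.34, Pkp1 at 3.44 ± 0.34 and the envelope plakin Evpl at 2.92 ± 0.37. Limma called 0 lower in either, with 1 and 0 at an unadjusted p under 0.05. Without lectin-only replicate 2 there was 1 lower in the GFP+ gate. The shares of all genes called higher were 5.36% (GFP+) and 5.85% (lectin-only), and the shares called lower were 4.96% and 2.05%.

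Between the lectin-binding gates 3 of the 21 were called. Itgb4 (1.49 ± 0.23), Col17a1 (2.10 ± 0.43) and Dsc3 (1.76 ± 0.34) were higher in the GFP+ than in the lectin-only gate, 18 genes were not called, and the list's median was -0.02, against -0.10 over all genes. The count of 3 fell to 1 after a further quantile normalization or without GFP+ replicate 2, lectin-only replicate 3 or columnar replicate 1 or 2, and to 0 without GFP+ replicate 1 or lectin-only replicate 1. Between these gates 0.654% of all genes were called higher. The basal marker list overlaps the attachment genes. Like the other lists it was chosen with earlier results of these data known, so its counts are a description. Against columnar it had 13 of 14 called higher in the GFP+ and 11 of 14 in the lectin-only gate, where 5.36% and 5.85% of all genes were. Between the 2 lectin-binding gates 8 of 14 were called higher, and the medians in the 3 comparisons were 4.33, 2.64 and 1.37.

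Markers of other cell types moved with the gates. Of 11 leukocyte genes 10 were called higher in the lectin-only and 2 in the GFP+ gate than in the columnar gate. Between the lectin-binding gates 8 were called lower in the GFP+ gate. For all genes the shares called in these 3 ways were 5.85%, 5.36% and 2.09%. Ptprc, the leukocyte common antigen, had means of 5.41, 8.95 and 3.25 in the GFP+, lectin-only and columnar gates. The list's summed signal, in log2, lay between 10.13 and 11.80 for GFP+ arrays, 14.07 and 14.71 for lectin-only arrays and 8.77 and 10.28 for columnar arrays. The part of leukocyte RNA in the keratin levels of the lectin-only gate was not tested.

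Squamous and hillock genes were called higher than in the columnar gate for 6 of 10 in the GFP+ and 9 of 10 in the lectin-only gate. Their summed signal lay at 13.55 to 15.22, 15.24 to 15.58 and 12.33 to 13.35 in the 3 gates. Limma called 0 of the 10 between the lectin-binding gates, where 2 were lower at an unadjusted p under 0.05. Against columnar, 5.36% (GFP+) and 5.85% (lectin-only) of all genes were called higher. Between the lectin-binding gates 0.654% were called higher and 2.09% lower.

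Myoepithelial cells of the glands also make Krt5 and Krt14. Of 9 myoepithelial and smooth muscle genes, 2 were called higher in each lectin-binding gate than in the columnar gate, Acta2, the smooth muscle actin, and the myosin kinase Mylk. Acta2 lay at 2.28 ± 0.53 (GFP+) and 3.26 ± 0.53 (lectin-only). The list's summed signal was 8.89 to 9.66, 8.82 to 9.79 and 7.18 to 7.69 in the GFP+, lectin-only and columnar gates, and 3, 0 and 3 of its genes were under background on all arrays of the gate. Its part in the keratin levels was not tested. Of 8 skin keratinocyte genes 2 were called higher in each lectin-binding gate, and 4 were under background throughout each gate. Of 6 fibroblast genes, GFP+ cells had 1 called higher and 3 lower, and lectin-only cells had 1 higher, and of 5 endothelial genes 0 and 2 were called higher, with 0 at an unadjusted p under 0.05 for the GFP+ gate.

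Markers of the columnar cell types ran the other way. Of 10 ciliated cell genes 10 were called lower in the GFP+ and 7 in the lectin-only gate than in the columnar gate, and Foxj1, a motile cilia regulator, stood at -3.21 ± 0.25 and -1.86 ± 0.25. Of 10 club and secretory genes 5 were called lower in each. Among all genes 4.96% were called lower in the GFP+ and 2.05% in the lectin-only gate. Scgb1a1, the club cell secretoglobin, was not called, at -0.10 ± 0.16 and -0.05 ± 0.16, with means between 13.64 and 13.74, a bright and level signal in all gates like that of Krt15.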

How the data were processed

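RNA of 9 sorted samples was purified with a micro column kit, amplified, labelled with biotin and hybridised to Affymetrix arrays, per the labels' protocols. The authors deposited log2 probe set signals made with RMA, per the submitters' processing notes. Which software and filters they used is not given in the sources used here. RMA smooths differences between arrays and compresses dim signals. Of 45101 probe sets, 64 were controls, 34945 had 1 gene symbol, 932 several and 9160 none. Of those with 1 symbol, 34741 had a gene identifier found in RefSeq and took the symbol given there. Gate means were fitted to 9 arrays with limma 3.58.1 in R 4.3.3 (lmFit, eBayes, 6 residual and 3.48 prior degrees of freedom), and p-values were adjusted over 45037 probe sets. The fit was tested on simulated data. A gene in a list was taken by its brightest probe set. The background level is the 95th percentile of 80 receptor probe sets. Where a gate lay under it on all arrays, folds are bounds. All probe sets of the members were named, with called keratins and up to 4 called genes per list and direction, the 5 nearest profiles and fixed markers. The members and lists were chosen with earlier results of these data known. Having 3 arrays a gate limits the precision. Alternatives were 2 scalings, 2 variance models, 2-gate fits, 1 probe set per gene, a filter on dim probe sets, a replicate block and leaving out each array.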

Additional observations from a re-analysis of the deposited data

How the results depend on the processing

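The counts of basal keratin probe sets called, 5, 5 and 0 in the 3 comparisons, held under the 16 alternatives that keep every member's probe sets or filter only dim ones. With 1 probe set per gene, 3, 3 and 0 of the 4 genes were called. Limma called Krt15 under none of the 17. Its differences from the columnar gate were at most 0.61 with 1 array left out, and a call needs 1 log2 unit. Alternatives that keep the difference thus could not have called it and are no support. With 1 array left out, the Krt5 difference from the columnar gate ranged from 4.86 to 5.94 (GFP+) and 4.31 to 5.39 (lectin-only), and that of Krt17 from 4.29 to 5.84 and 4.72 to 6.27. The filter on dim probe sets left no value for Krt17 1420193_at. Of 789 repeated values, 33 counts moved by over 1.5 times and 4 ratios changed sign. The replicate block, the 2-gate fits and the filter cannot move a gate difference, so unchanged differences there are no support. Keratins lower in the GFP+ than in the columnar gate went from 1 to 0 with only the 2 gates fitted (leaving out 1 array, 0 to 1). Keratins lower in lectin-only than in columnar cells went from 0 to 1 with arrays centred on their medians and to 1 after a further quantile normalization (leaving out 1 array, 0 to 1). Keratins lower in the GFP+ than in the lectin-only gate went from 1 to 0 with array weights and to 0 with only the 2 gates fitted (leaving out 1 array, 0 to 1). Leaving out 1 array gave 7 to 13 keratins higher in lectin-only than in columnar cells and 0 to 2 regulators higher in the GFP+ than in the lectin-only gate. Attachment genes higher in the GFP+ than in the lectin-only gate went from 3 to 1 after quantile normalization (leaving out 1 array, 0 to 3), and those lower in the GFP+ than in the columnar gate ranged from 0 to 1. The GFP+ minus columnar change of Krt14 over Krt5 ranged from -0.49 to 0.13 (0.13 without GFP+ replicate 1, 0.11 without columnar replicate 2) for 1423935_x_at and from -0.42 to 0.37 (-0.42 without GFP+ replicate 2, -0.08 without columnar replicate 3) for 1460347_at. The cause of these changes was not tested. Centring the arrays moved the median of all genes between the lectin-only and columnar gates from 0.07 to -0.17.

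The samples share only a number, with no stated pairing. The deviations of same-numbered arrays correlated at -0.072 to 0.297, and an array correlated best with its own number in 13 of 18 array and gate pairs. With the replicate number as a block, the probe sets called went from 3153 to 3483, 2289 to 2636 and 736 to 987 in the 3 comparisons. The basal keratin counts were 5, 5 and 0. The Krt5 difference of the GFP+ from the columnar gate was 5.48, which a block cannot change, since every gate holds each replicate number. No depth or signal error per probe set was used, dim probe sets near 3.56 carry little information, and 3 arrays a gate leave a wide interval for Krt14 and Krt17.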
